A study of Mus musculus with 6 samples.

Results

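Described here are 30 mouse genes of cholesterol homeostasis, out of 20866 genes named on the array: 16 enzymes of sterol synthesis, 5 genes of SREBP regulation, 2 LXR receptors, 3 LXR targets that export cholesterol or limit its uptake, and 4 genes of fatty acid and phospholipid synthesis. The genes were chosen by symbol, with earlier results of these arrays known, so their levels in the 3 cell populations and their genotype differences are given as a description, without a test. Where several probes read a gene, the one with the highest mean signal was used. All 30 were on the array, and 29 of them were well above background on every array by the scanner software's own call. The exception was Scd1, which was not well above background on either array of the CD4+CD25hi sort.

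The study set C57BL/6 mice lacking TNFalpha (TNF knockout) against mice lacking both TNFalpha and RelA (double knockout). RelA is a subunit of the transcription factor NF-kB. All mice therefore lacked TNF, and no wild-type thymus was analysed here. Both genotypes were 1.5 to 2 weeks old. CD4+CD25hi thymocytes, a gate enriched for regulatory T cells and called thymocytes below, were pooled from 5 mice per genotype. CD45-EpCAM+ cells (the epithelial fraction) and CD45+EpCAM- cells (the CD45+ fraction) were each sorted from 10 pooled thymi per genotype. The CD45+ fraction holds macrophages and dendritic cells and, by its markers below, much T lineage RNA as well. Each of these 6 groups had 1 array, so no genotype difference within a population has a replicate check, and the number of arrays limits the precision.

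Cells make cholesterol from acetyl-CoA through mevalonate, isoprenoids, squalene and lanosterol. When membrane sterol is low, the SREBP transcription factors leave the endoplasmic reticulum with their escort protein, are cleaved, and switch on the enzymes of this route, while Insig proteins hold them back when sterol is plentiful. LXR, a nuclear receptor for oxidised sterols, works the other way: it switches on transporters that carry cholesterol out of the cell and a ubiquitin ligase that limits its uptake. Lymphocytes draw on sterol synthesis when they divide, and macrophages use LXR to unload the cholesterol of the cells they engulf.

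Levels are log2 of the background-corrected signal minus the array's 75th percentile, so 0 is the signal at that percentile. Differences are double knockout minus TNF knockout on that scale, where -1 is 2-fold lower. The scanner software's own error of a difference, which covers the spots but not the spread between pools of mice, ran from 0.20 to 0.35 over the members above background. Probes of the same gene disagreed in their differences by an SD of 0.22 in thymocytes, 0.32 in the epithelial fraction and 0.21 in the CD45+ fraction. RNA came from bulk sorted cells, where fewer cells of a type and less RNA per cell cannot be told apart.

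The 75th percentile of the signal lay between 108 and 675, and the double-knockout epithelial array had the least signal, with 47.3% of its probes well above background against 55.1% to 66.2% on the others. Rela differed by -1.86, -2.02 and -0.74 in thymocytes, the epithelial and the CD45+ fraction, read by a probe whose place relative to the deleted part is not known here. Tnf, deleted in both genotypes, differed by -0.15 and -0.07 in thymocytes and the CD45+ fraction and was at least 2.32-fold lower in the epithelial double knockout, where it was not well above background. Foxp3, which defines regulatory T cells, had levels of 4.47 and 4.79 in thymocytes, TNF knockout first. Krt8, an epithelial keratin, had 6.38 and 6.44 in the epithelial fraction. Some other epithelial markers differed between the genotypes, as given below. Adgre1, a macrophage surface receptor, had -0.50 and 0.04 in the CD45+ fraction. Cd3e, a T cell receptor subunit, was well above background in all 3 populations, with 3.89 and 4.87 in the epithelial fraction and 5.67 and 5.77 in the CD45+ fraction.

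Promoters are shown for 3 sterol synthesis enzymes and 2 LXR efflux targets, the groups whose differences ran in opposite directions below. They span 250 bases before to 50 bases after the transcription start, from RefSeq on GRCm38.p6, which listed promoters of 23 of the 30 genes, 31 promoters in all. Fdps, Sqle, Fdft1, Stard4, Abcg1, Scd1 and Scd2 had no matching entry. Hmgcs1 lies at chr13:119690101-119690400 on the plus strand, Idi1 at chr13:8885356-8885655 on the plus strand and Cyp51 at chr5:4104648-4104947 on the minus strand. Abca1 lies at chr4:53159846-53160145 on the minus strand and Mylip at chr13:45389492-45389791 on the plus strand. Each is written 5′ to 3′ on the gene's strand, and capitals mark a CCAAT box (CCAAT, or ATTGG on the other strand) or a sterol response element, SRE (TCACNCCAC, either strand).
Hmgcs1 promoter: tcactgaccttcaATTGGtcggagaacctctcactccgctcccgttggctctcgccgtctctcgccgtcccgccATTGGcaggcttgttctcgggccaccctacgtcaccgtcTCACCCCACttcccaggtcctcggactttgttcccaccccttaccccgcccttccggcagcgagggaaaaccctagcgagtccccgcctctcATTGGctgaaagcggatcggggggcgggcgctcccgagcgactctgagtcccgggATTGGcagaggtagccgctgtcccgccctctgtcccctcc
Idi1 promoter: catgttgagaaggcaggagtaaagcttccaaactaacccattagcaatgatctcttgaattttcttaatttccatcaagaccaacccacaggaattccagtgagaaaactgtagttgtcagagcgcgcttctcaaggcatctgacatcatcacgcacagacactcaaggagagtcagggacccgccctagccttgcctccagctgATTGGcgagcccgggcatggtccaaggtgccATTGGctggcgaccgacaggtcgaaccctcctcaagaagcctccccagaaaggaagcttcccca
Cyp51 promoter: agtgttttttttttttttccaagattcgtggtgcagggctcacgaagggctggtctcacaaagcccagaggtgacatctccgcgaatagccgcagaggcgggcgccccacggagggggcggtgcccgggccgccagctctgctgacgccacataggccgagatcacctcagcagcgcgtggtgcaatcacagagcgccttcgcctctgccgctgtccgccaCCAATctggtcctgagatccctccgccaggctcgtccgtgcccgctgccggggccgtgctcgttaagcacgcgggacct
Abca1 promoter: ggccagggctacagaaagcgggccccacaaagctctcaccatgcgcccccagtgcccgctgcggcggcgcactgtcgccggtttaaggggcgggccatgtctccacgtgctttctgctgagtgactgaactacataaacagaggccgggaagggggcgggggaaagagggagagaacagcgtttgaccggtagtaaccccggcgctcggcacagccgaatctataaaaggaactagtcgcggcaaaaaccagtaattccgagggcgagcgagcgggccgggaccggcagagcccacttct
Mylip promoter: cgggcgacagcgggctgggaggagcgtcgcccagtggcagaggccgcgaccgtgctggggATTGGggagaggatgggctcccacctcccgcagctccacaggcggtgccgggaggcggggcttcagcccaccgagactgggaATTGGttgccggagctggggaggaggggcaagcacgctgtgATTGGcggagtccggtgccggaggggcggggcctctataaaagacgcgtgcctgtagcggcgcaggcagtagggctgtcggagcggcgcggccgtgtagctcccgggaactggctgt

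The CCAAT box, the site of NF-Y, a factor that works beside SREBP at many sterol genes, was found in 12 of 16 promoters of the sterol synthesis enzymes, against 37.4% of all 32851 RefSeq promoters of this length. Counted by gene, 12 of 13 enzymes with a promoter had it (92.3%), against 41.1% of 27025 genes. So did 4 of 4 genes of SREBP regulation, 2 of 2 fatty acid and phospholipid genes, 1 of 2 LXR efflux targets and 0 of 2 LXR receptors. It was thus not particular to the enzymes. The enzyme promoters were also richer in G and C, with a median of 59.8% against 52.7% of bases. The SRE was found in 1 of the 16, that of Hmgcs1, where TCACCCCAC begins 137 bases before the start, and in 1.24% of all promoters. Its shorter core, CACNCCAC, which lies within the SRE, was found in 2 of 16 (12.5%) and in 6.24% of all. The E-box CACGTG was found in 2 of 16 and in 7.15% of all, and 1 lies in the Abca1 promoter, 147 bases before the start, left in lower case above. For the LXR element DR4, a direct repeat of the receptor's binding motif, only the perfect letters were searched. Neither was in the windows of the 23 members with a promoter, and they were in 0.0152% and 0.0761% of all promoters. Imperfect copies, which LXR also binds, were not searched, so the promoters shown may hold an LXR element that is not marked. Motifs were searched on both strands. A match is a run of letters, not a measured binding site.

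In each population most sterol synthesis enzymes were lower in the double knockout, and the LXR efflux targets were higher. Over the 16 enzymes the median difference was -0.56 in thymocytes, -0.47 in the epithelial fraction and -0.39 in the CD45+ fraction, where the median of all genes was -0.02, 0.03 and -0.01. Over Abca1, Abcg1 and Mylip it was 0.76, 0.41 and 0.56. In thymocytes 16 of 16 enzymes were lower by any amount, where 52.2% of all 12936 genes with a difference were. In the epithelial fraction 14 of 16 were lower, against 47% of all genes (10 of 16 with normexp background correction, an alternative that models background from the spot surroundings). In the CD45+ fraction 16 of 16 were lower, against 51.2%, and 15 with normexp.

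In all 3 populations 14 of the 16 enzymes were lower, where 18% of the 10966 genes measured in each were. Without the epithelial pair 16 of 16 were lower in both remaining populations, where 34.1% of genes were. The LXR efflux targets were higher, 3 of 3, in thymocytes, the epithelial and the CD45+ fraction, where 47.8%, 53% and 48.8% of genes were. They were thus higher in all 3 populations, where 17.7% of genes were, and in both populations without the epithelial pair, where 29.4% were. The genes were chosen on these differences, so nothing is read from the counts against these shares.

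**Figure D1:**
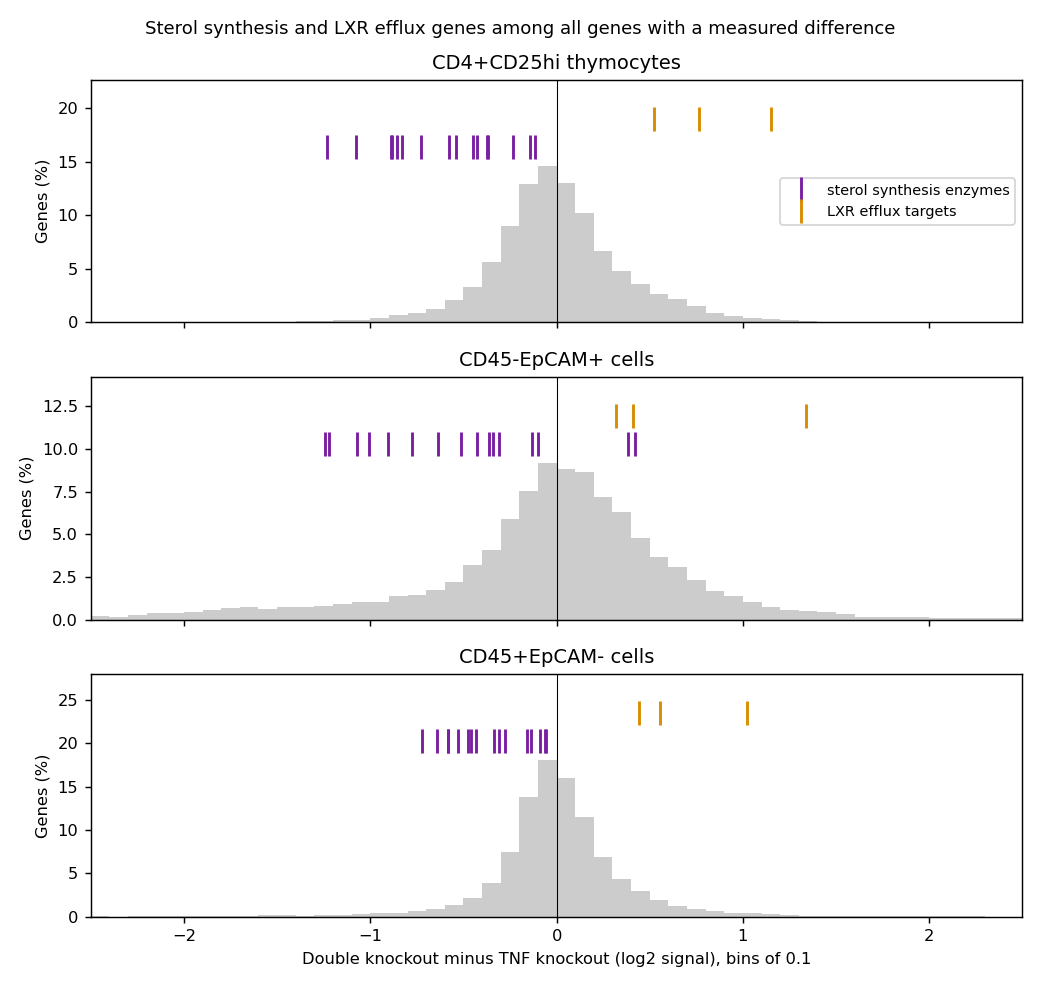
Distribution of the genotype difference (double knockout minus TNF knockout, log2, x axis) over all genes with a measured difference, as percent of genes (y axis), in each population. Purple ticks mark the 16 sterol synthesis enzymes, which lie left of 0 except Dhcr7 and Acat2 in CD45-EpCAM+ cells (with normexp 6 enzymes lie right of 0 there and 1 in CD45+EpCAM- cells); orange ticks mark Abca1, Abcg1 and Mylip, all right of 0.

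The route to farnesyl pyrophosphate held several of the larger differences. Hmgcs1, which makes HMG-CoA, read 2.90 on the TNF-knockout and 2.07 on the double-knockout array of thymocytes, 3.07 and 2.29 in the epithelial fraction, and 3.18 and 2.72 in the CD45+ fraction. All 3 double-knockout arrays were below all 3 TNF-knockout arrays, with differences of -0.83, -0.77 and -0.46. Idi1, which isomerises the isoprenoid unit, read 1.61 and 0.38, then 1.90 and 0.83, then 2.43 and 1.85 in the same order. The genotypes overlapped across populations, because the CD45+ double-knockout array was above the thymocyte TNF-knockout array, but within each population the double knockout was lower, with differences of -1.23 (2.35-fold), -1.07 and -0.58. Fdps, farnesyl pyrophosphate synthase, read 2.99 and 2.13, 3.23 and 1.99, and 3.59 and 3.01, with differences of -0.86, -1.24 and -0.58.

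The mevalonate kinases and the decarboxylase were less even. Mvk, mevalonate kinase, differed by -0.58 in thymocytes but only -0.10 in the epithelial fraction, within the software's error, and by -0.28 in the CD45+ fraction. Pmvk, which adds the next phosphate, differed by -0.54, -0.64 and -0.34. Mvd, which removes carbon dioxide to yield the isoprenoid unit, read 0.78 and 0.41, 0.46 and -0.75, and -0.05 and -0.36. Its difference in the epithelial fraction, -1.22, stood apart from -0.37 and -0.31 in the others. Acat2, a thiolase that supplies the start of the route, differed by -0.11 and -0.14 in thymocytes and the CD45+ fraction and was higher, by 0.38, in the epithelial fraction.

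**Figure D2:**
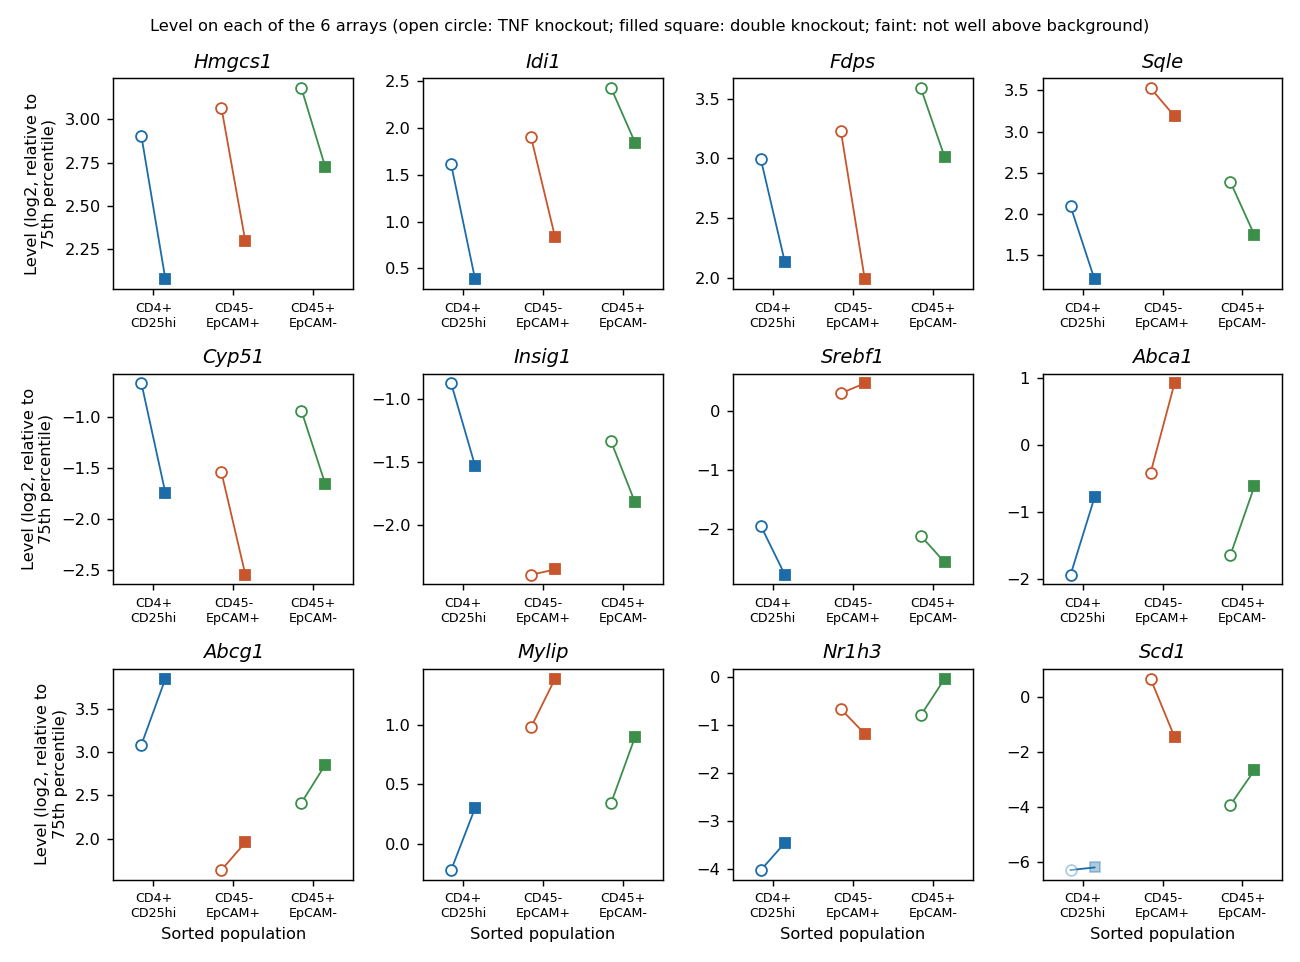
Level of 12 of the genes on each of the 6 arrays (log2 relative to the array's 75th percentile, y axis) by sorted population (x axis), with a line joining the TNF-knockout array (open circle) to the double-knockout array (filled square) and faint symbols where a probe was not well above background. The lines of Hmgcs1, Idi1, Fdps, Sqle and Cyp51 slope down in each population (with normexp Cyp51 is 0.11 higher in CD45-EpCAM+ cells), those of Abca1, Abcg1 and Mylip slope up, and those of Scd1 slope in opposite directions in CD45-EpCAM+ and CD45+EpCAM- cells.

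The enzymes that build and close squalene followed the same direction. Fdft1, squalene synthase, read 0.87 and -0.01, 1.07 and 0.16, and 0.47 and -0.06, with differences of -0.88, -0.91 and -0.53. Sqle, squalene epoxidase, a rate-limiting enzyme, read 2.09 and 1.20, 3.53 and 3.19, and 2.39 and 1.74. Its difference was smallest in the epithelial fraction, -0.34, where its level was highest, and -0.89 and -0.64 in the others. Lss, which folds the product into lanosterol, differed by -0.73, -0.43 and -0.47, and the value in the epithelial fraction turned to 0.14 with normexp.

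Cyp51, the demethylase that acts on lanosterol, read -0.67 and -1.75 in thymocytes, -1.55 and -2.55 in the epithelial fraction, and -0.94 and -1.66 in the CD45+ fraction. The double knockout was lower in each population, with differences of -1.08, -1.01 and -0.72. The epithelial value has an error of 0.34 by the software's model and was 0.11 with normexp, so its direction there depends on the processing. That alternative also used median signals and an added offset, and which change turned the sign was not tested. Idi1, Fdps, Fdft1 and Cyp51 were the 4 members lower by at least 0.5 in each population, a threshold set after the values were seen, which 0.447% of genes met. No member was at least 2-fold lower in each population, as 0.0912% of genes were, and at least 0.5 higher in each was Abca1, as 0.365% of genes were.

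The later steps from lanosterol to cholesterol differed less. Nsdhl, a sterol dehydrogenase, differed by -0.37, -0.31 and -0.43 and Hsd17b7, a ketosterol reductase, by -0.42, -0.36 and -0.16. With normexp the epithelial values of this pair were 0.19 and 0.09. Ebp, the sterol isomerase, read 3.82 and 3.59, 2.82 and 2.31, and 3.49 and 3.40. Its differences were -0.24, -0.51 and -0.09. Tm7sf2, a sterol reductase, differed by -0.14, -0.13 and -0.06, all within the software's error. Dhcr7, which makes cholesterol in the last step, differed by -0.45 and -0.06 in thymocytes and the CD45+ fraction and by 0.42 in the epithelial fraction, and the value of -0.06 was 0.01 with normexp.

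At least 2-fold lower were 2 of the 16 enzymes in thymocytes (Idi1 and Cyp51), where 1.28% of all genes were, and 1 of them with normexp. In the epithelial fraction 4 were (Mvd, Idi1, Fdps and Cyp51), where 9.3% of genes were. In the CD45+ fraction 0 of 16 were, where 2.08% of genes were. This last group has 1 array per genotype and no test, and its largest difference was the -0.72 of Cyp51.

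**Figure D3:**
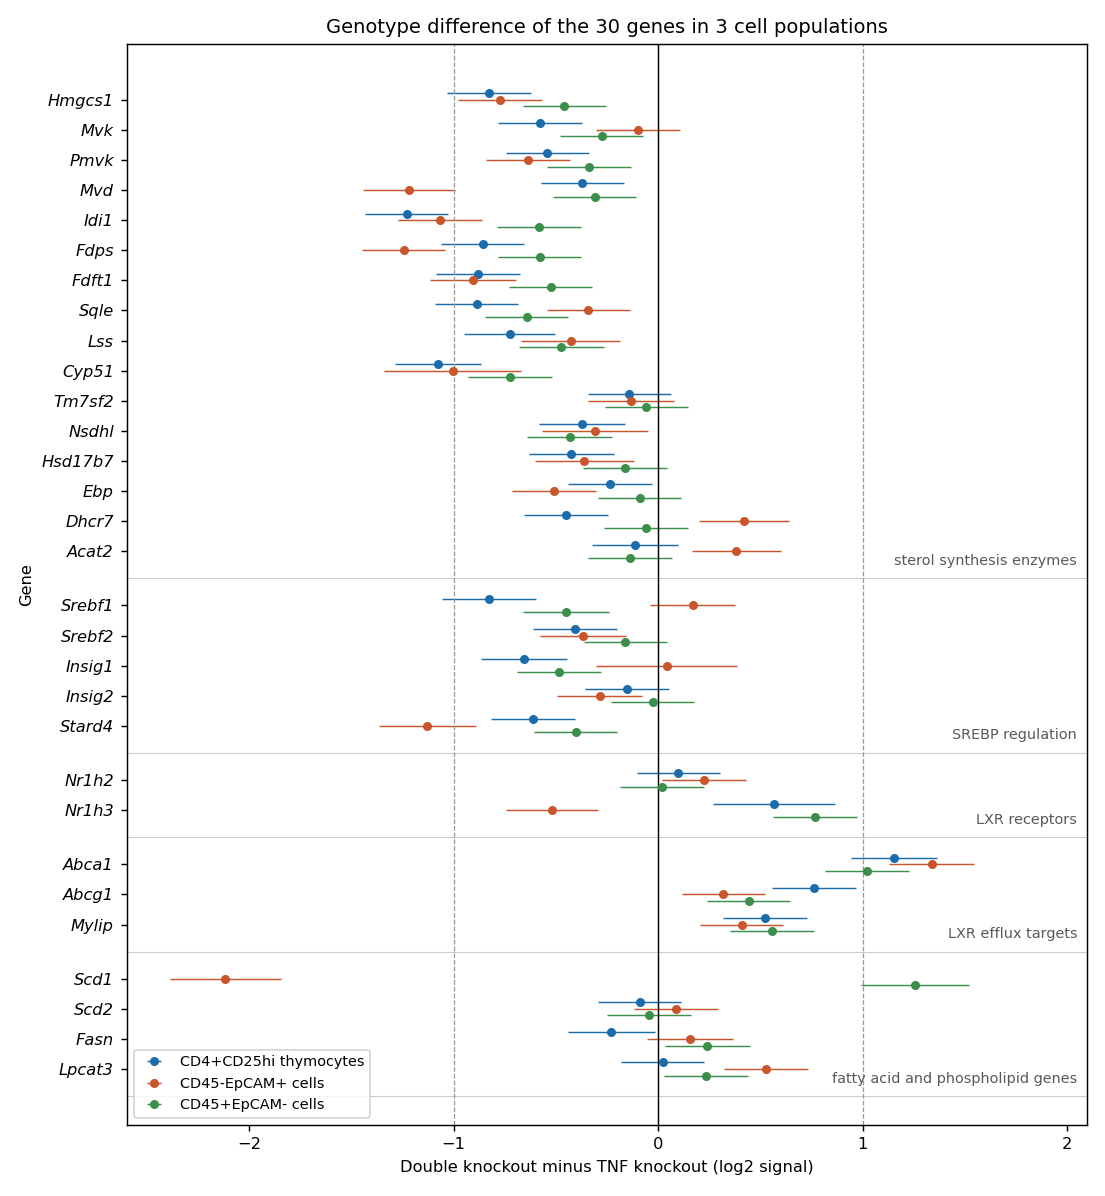
Genotype difference of each of the 30 genes (double knockout minus TNF knockout, log2 signal, x axis; genes by role, y axis) in 3 populations. Bars show the scanner software's error of the difference, which does not cover the spread between pools, and dashed lines mark 2-fold. The sterol synthesis enzymes lie mostly left of 0 and Abca1, Abcg1 and Mylip right of it; in CD45-EpCAM+ cells Lss, Cyp51, Nsdhl and Hsd17b7 move right of 0, and Nr1h2 and Scd2 left of it, with normexp.

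The genes of SREBP regulation were lower in the double knockout in thymocytes and the CD45+ fraction, 5 of 5 in each, where 52.2% and 51.2% of all genes were, and 3 of 5 in the epithelial fraction, where 47% were. Their medians were -0.61, -0.40 and -0.29. With normexp the first was -0.31. Srebf1, which encodes the SREBP that favours fatty acid genes and is itself an LXR target, read -1.94 and -2.77 in thymocytes, 0.30 and 0.47 in the epithelial fraction, and -2.11 and -2.56 in the CD45+ fraction. Its differences were -0.83, 0.17 and -0.45, and both epithelial arrays were above all 4 others. Srebf2, which encodes the SREBP that favours cholesterol genes, read 0.61 and 0.20, 0.55 and 0.19, and 0.48 and 0.32. All 3 double-knockout arrays were below all 3 TNF-knockout arrays, with differences of -0.41, -0.37 and -0.16, the last within the software's error.

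Insig1, an SREBP target that retains SREBP in the endoplasmic reticulum, read -0.88 and -1.53 in thymocytes, -2.40 and -2.36 in the epithelial fraction and -1.34 and -1.82 in the CD45+ fraction. It was lower in the double knockout in the CD45+ and thymocyte populations, with differences of -0.48 and -0.66. The epithelial difference of 0.04 was far inside its error of 0.35 and turned to -0.01 with median centring. Insig2, the companion of Insig1, differed by -0.15, -0.29 and -0.03. Stard4, a sterol carrier and SREBP target, read 0.45 and -0.16, 0.16 and -0.97, and 0.56 and 0.16, with differences of -0.61, -1.13 and -0.40.

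The LXR receptors were uneven: LXR beta was nearly level and LXR alpha differed in direction between populations. Nr1h2, the widely expressed LXR beta, read 3.22 and 3.32, 3.39 and 3.62, and 3.14 and 3.16, and its differences of 0.10, 0.23 and 0.02 were close to the software's error (the second was -0.20 with normexp). Nr1h3, LXR alpha, typical of macrophages and liver, read -4.03 and -3.46 in thymocytes, -0.67 and -1.19 in the epithelial fraction and -0.80 and -0.03 in the CD45+ fraction. It was higher in the double knockout by 0.57 and 0.77 in the thymocyte and CD45+ populations and lower in the epithelial fraction, where it differed by -0.52. Its second probe gave 0.45, 0.80 and -0.37 in those populations.

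Abca1, the transporter that hands cholesterol to apolipoprotein A-I, had the largest difference among the efflux targets. It read -1.93 and -0.78 in thymocytes, -0.42 and 0.92 in the epithelial fraction, and -1.64 and -0.61 in the CD45+ fraction. Each double-knockout array was above its own control, by 1.15, 1.34 and 1.02, which are 2.22-fold, 2.53-fold and 2.03-fold. Abca1 was 1 of 4 genes at least 2-fold higher in each population, 0.0365% of those measured. The others, named after their values were seen, were Chil3, Fcgr4 and Txnip. With normexp its differences were 0.77, 0.93 and 0.82, all higher and all under 2-fold.

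Abcg1, which exports cholesterol to HDL particles, read 3.09 and 3.85, 1.64 and 1.96, and 2.41 and 2.86. It was higher by 0.76, 0.32 and 0.44, and the epithelial value was 0.06 with normexp. Mylip, the ubiquitin ligase that limits lipoprotein uptake, read -0.22 and 0.30, 0.98 and 1.39, and 0.34 and 0.90. Its differences were 0.52, 0.41 and 0.56, and a second probe gave 0.73, 0.29 and 0.64. Beyond 2-fold stood 1 of these 3 genes in each population, where 1.68%, 5.1% and 1.82% of all genes were that much higher.

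The fatty acid and phospholipid genes had no shared direction. Scd1, a desaturase that makes monounsaturated fatty acids and a target of both LXR and SREBP, was not well above background in thymocytes. In the epithelial fraction it read 0.66 and -1.46, a difference of -2.12 with the double knockout lower. In the CD45+ fraction it read -3.92 and -2.66, higher by 1.26. Its relative Scd2 read 4.04 and 3.95, 4.84 and 4.92, and 3.91 and 3.86, with differences of -0.09, 0.09 and -0.04, all within the software's error (the second was -0.40 with normexp).

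Fasn, fatty acid synthase, differed by -0.23, 0.16 and 0.24. Lpcat3, an LXR target that loads polyunsaturated chains onto phospholipids, read 0.83 and 0.85, 1.62 and 2.15, and 0.65 and 0.88. It was higher by 0.53 in the epithelial fraction, with 0.02 and 0.24 in the others. Of the 29 members measured in each population, 17 were lower and 5 higher in all 3, where 18% and 17.7% of all genes were, so the share higher is near that of all genes. Besides Abca1, Abcg1 and Mylip, the 5 were Nr1h2 and Lpcat3.

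A second probe was on the array for 11 members, and for 10 of them it was well above background on 5 or 6 arrays. Its difference had the same sign as that of the brighter probe in 24 of 27 comparisons. The exceptions were Mvk in the epithelial fraction (0.02 against -0.10) and Insig2 in the epithelial and the CD45+ fraction (0.06 against -0.29 and 0.07 against -0.03). The second Fdft1 probe was not well above background on any array, and the mean of both probes gave 0.16 and 0.43 for Fdft1 in thymocytes and the epithelial fraction.

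Across populations, Srebf1 and the fatty acid and phospholipid genes had their highest levels in the epithelial fraction. Population levels here are the mean of the TNF-knockout and double-knockout arrays, which are not replicates, and each population was on a slide of its own, so population and slide cannot be told apart. The epithelial pair also had a scan date of its own, per the file headers. Its differences from the other populations cannot be told apart from that date either. Srebf1 was 2.74 higher in the epithelial fraction than in thymocytes and 2.72 higher than in the CD45+ fraction, while the latter pair differed by 0.02. Fasn was higher in the epithelial fraction by 1.49 and 1.56, Lpcat3 by 1.05 and 1.13, and Scd2 by 0.89 over the thymocytes. Scd1 was at least 19.4-fold higher in the epithelial fraction than in thymocytes, a bound set by the dimmest signal counted as above background, and 2.89 higher than in the CD45+ fraction.

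The sterol synthesis enzymes showed no such common order. Sqle was 1.71 higher in the epithelial fraction than in thymocytes and 1.29 higher than in the CD45+ fraction, whereas Ebp was 1.14 lower than in the thymocytes and 0.88 lower than in the CD45+ fraction. Idi1 was highest in the CD45+ fraction, by 1.14 over the thymocytes and 0.77 over the epithelial fraction. Its epithelial TNF-knockout array, at 1.90, was above the CD45+ double-knockout array, at 1.85, so these populations overlapped.

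Receptors and transporters of the LXR group differed in their order. Nr1h3 was 2.82 lower in thymocytes than in the epithelial fraction and 3.33 lower than in the CD45+ fraction. Abcg1 was instead highest in the thymocytes, by 1.67 and 0.83, with no overlap between any thymocyte array and the others. Abca1 was 1.61 higher in the epithelial fraction than in thymocytes and 1.37 higher than in the CD45+ fraction. Insig1 was 1.17 higher in the thymocytes than in the epithelial fraction and Insig2 0.95 lower, so the retention proteins lay in opposite order. Between the epithelial and the CD45+ fraction the order of Insig1 turned with normexp, from -0.80 to 0.05. The median of all genes moved by more than 0.1 with the scaling, for thymocytes minus the epithelial fraction from 0.15 to -0.07 with median centring.

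Genes of the same pathways outside the 30 were also chosen with earlier results of these arrays known. They were tested across populations with limma, with genotype as a covariate, over 13743 genes. Of 17 other sterol and SREBP genes and 16 other LXR and cholesterol handling genes tested, 2 and 7 differed at least 2-fold with a limma adjusted p under 0.05 between thymocytes and the epithelial fraction, where 38.9% of all genes did. Lower in the thymocytes were 1 and 6 of them, where 20.7% of all genes were called lower. Of these 7 only Apoe was well above background on both thymocyte arrays; the others entered the test through populations where they are brighter, so their count is no support for a direction. Over genes above background on every array of the comparison, 3 genes of both lists passed in place of 9. Apoe, the apolipoprotein that carries cholesterol from macrophages and an LXR target, was 4.02 lower in the thymocytes (SE 0.16, limma adjusted p = 0.0014). Apoc1, Pltp, Lrp1 and Ch25h were well above background on 1 of the 2 thymocyte arrays, so the size of their difference depends on how the dim array is treated, and it is given as a range over the alternatives of scaling, probe and filter. Apoc1, an apolipoprotein encoded beside Apoe, differed by -7.25 to -4.39, Pltp, which transfers phospholipid between lipoproteins, by -9.87 to -6.98, and the endocytic receptor Lrp1 by -5.02 to -2.33, thymocytes minus epithelial fraction. Ch25h, which makes an oxysterol, differed by -4.97 to -2.05, and its limma adjusted p ran up to 0.052, above the threshold of 0.05. Lpl, lipoprotein lipase, and Fads2, a desaturase of long fatty acids, were not well above background on either thymocyte array, and were at least 55.1-fold and at least 2.46-fold lower there, with a limma adjusted p of up to 0.12 for Fads2 over the alternatives. Lipa, the lysosomal acid lipase, and Acss2, which activates acetate, were higher in the thymocytes, by 1.28 and 1.12.

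Between thymocytes and the CD45+ fraction 3 and 5 genes of these lists passed, where 12.6% of all genes did. Lower in the thymocytes were 3 and 4, where 7.81% of all genes were called lower. Over genes above background on every array, 5 genes in place of 8 passed. With any array of either population left out, 1 array remained there, and fewer genes passed, of these lists as of all genes. Apoe was again lower in the thymocytes, by 3.71 (SE 0.16, limma adjusted p = 0.0092). Fads1, the partner of Fads2, was lower by 1.57 and Tmem97, a sterol-regulated membrane protein, by 1.25. Apoc1 and Lrp1, above background on 1 of the 2 thymocyte arrays, differed by -5.12 to -2.87 and by -3.67 to -1.32 over the alternatives, and the limma adjusted p of Lrp1 ran up to 0.060. Lpl was at least 16.5-fold lower. Fads2 counts among the 3 through values below background: its bound is at least 1.56-fold, short of the 2-fold threshold, and its difference turned to 0.34 under an alternative. Smpdl3a, a phosphodiesterase and LXR target, was 1.83 higher, where 4.8% of all genes were called higher. Between the epithelial and the CD45+ fraction 3 and 7 passed, where 38.6% did, and lower in the epithelial fraction were 2 and 2, where 19.2% of all genes were called lower, and 6 genes in place of 10 passed over those above background on every array. Without either array of the CD45+ fraction, which leaves 1 array there, fewer genes passed, of both lists as of all genes. Pltp was 6.55 higher (SE 0.71, limma adjusted p = 0.0060) and Sc5d, a sterol desaturase, 1.42 higher (SE 0.19, limma adjusted p = 0.0093) in the epithelial fraction. Apoc1, Lpl and Smpdl3a were 1.91, 1.73 and 1.53 higher there, and Ch25h at least 28.5-fold higher. Lower there were Scarb1, the HDL receptor, by 1.22 (SE 0.27, limma adjusted p = 0.028), Lipa by 1.65 and Acss2 by 1.20, and Tmem97 was 2.15-fold lower. Me1, which supplies NADPH for lipid synthesis and entered no test, was at least 66.6-fold and 116-fold higher in the epithelial fraction than in thymocytes and the CD45+ fraction, where it was not well above background.

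For genotype, a limma fit with population as a block called 0 of 13743 genes at an adjusted p of 0.05, where 873 genes (6.35%) had an unadjusted p under 0.05. Both lists of other genes were chosen with earlier results of these arrays known, so nothing is read from their counts against that share. Among the other sterol and SREBP genes, 5 of 17 had an unadjusted p under 0.05, all lower in the double knockout, and 0 passed after adjustment, the smallest adjusted p being 0.679. Msmo1, the sterol methyl oxidase that acts after Cyp51, read 2.11 and 1.20, 2.29 and 1.26, and 1.93 and 1.28. Its common difference was -0.86 (SE 0.13, limma adjusted p = 0.679), lower in 3 of 3 populations. Tmem97 had a common difference of -0.44 (SE 0.12) and Acaca, which makes malonyl-CoA, -0.38 (SE 0.12), each with the same limma adjusted p.

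Among the other LXR and cholesterol handling genes, 2 of 16 had an unadjusted p under 0.05, both higher in the double knockout, and 0 passed after adjustment. Apoe was higher by 0.43, 0.83 and 0.66, a common difference of 0.64 (SE 0.13, limma adjusted p = 0.679). Lpl was 0.55 higher in the epithelial fraction and 1.03 higher in the CD45+ fraction and not well above background in the thymocytes. Without a test, Apoc1 was 1.57 higher in the CD45+ fraction and Soat1, which esterifies cholesterol, 1.08 higher in the epithelial fraction. Abcg5, a sterol exporter of gut and liver, was 1.58 lower in the epithelial fraction and not well above background elsewhere. Ch25h was at least 2.26-fold higher in double-knockout thymocytes, where the TNF-knockout array was not well above background. The list medians were -0.20, -0.26 and -0.16 for sterol and SREBP genes and 0.15, 0.53 and 0.07 for LXR and cholesterol handling genes.

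**Figure D4:**
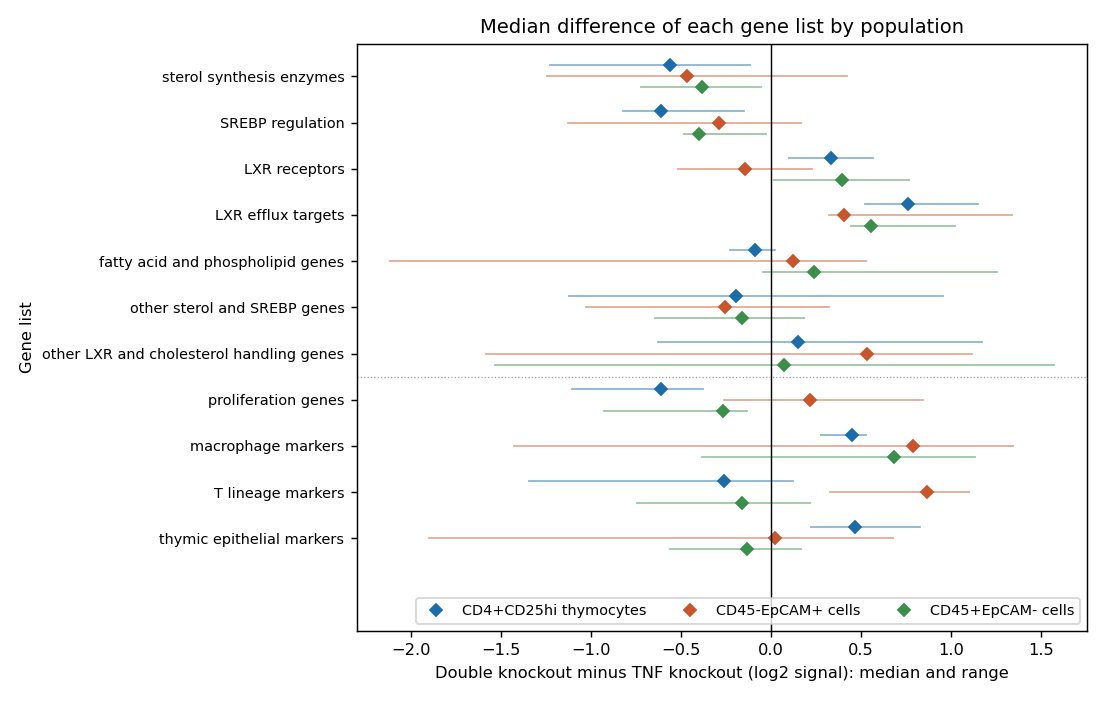
Median genotype difference (diamond) and range (line) of each gene list (y axis), as double knockout minus TNF knockout in log2 signal (x axis), by population; lists below the dotted line are markers and not part of the pathway. Sterol synthesis and SREBP lists lie left of 0 and LXR efflux targets right of it in each population. Proliferation genes lie left of 0 at -0.61 and -0.27 in CD4+CD25hi and CD45+EpCAM- cells and right of it at 0.21 in CD45-EpCAM+ cells.

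Marker genes of division and of other cell types also differed between the genotypes. Of all genes, 52.2%, 47% and 51.2% were lower in thymocytes, the epithelial and the CD45+ fraction. Higher were 47.8%, 53% and 48.8%, and the marker counts stand beside these shares. Of the proliferation genes, 11 of 11 measured were lower in the double knockout in thymocytes (median -0.61) and 12 of 12 in the CD45+ fraction (median -0.27). In the epithelial fraction 8 of 11 were higher (median 0.21). The summed level of these genes, in multiples of the array's 75th percentile, went from 30.9 to 20.8, from 27.2 to 32.2 and from 195 to 159 in thymocytes, the epithelial and the CD45+ fraction. The part of proliferation in the sterol differences was not tested.

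Macrophage markers were mostly higher in the double knockout: 3 of 3 measured in thymocytes (median 0.45), 5 of 7 in the epithelial fraction (0.79) and 7 of 9 in the CD45+ fraction (0.68), of 9 on the array. Their summed level was 1.41 and 1.73, 8.01 and 10.4, and 11.9 and 19.4, TNF knockout first. In the thymocytes C1qa, C1qc, Adgre1, Mertk, Timd4 and Lyz2 were not well above background on either array. T lineage markers were higher in the epithelial double knockout, 9 of 9 with a median of 0.87, and their summed level went from 92.0 to 176. In thymocytes 8 of 9 were lower, as the sterol enzymes were, with a median of -0.26, a summed level of 301 and 281, and the larger differences in genes of immature thymocytes: Ptcra differed by -1.35, Rag1 by -0.88 and Cd8a by -0.78. Granulocyte markers were higher in the CD45+ fraction, 6 of 6 with a median of 1.52 and a summed level of 6.53 and 23.3. They were lower in the epithelial fraction, 5 of 6 with a median of -1.84 and a summed level of 32.1 in the TNF knockout. Dendritic cell markers were lower in the CD45+ fraction, 7 of 7 with a median of -0.58. Flt3, Clec9a and Itgax differed by -1.83, -1.75 and -1.46 there, and the smallest difference of the list was -0.03. Thymic epithelial markers were split in the epithelial fraction, 4 of 8 lower and 4 higher with a median of 0.02. They ran from -1.90 for Aire to 0.68 for Prss16 there. Fibroblast and endothelial markers were higher in thymocytes (4 of 4), the epithelial (5 of 6) and the CD45+ fraction (5 of 7). B cell markers were higher in thymocytes (3 of 3) and lower in the epithelial (1 of 1) and the CD45+ fraction (5 of 5). The part of all these cells in the pathway's differences was not tested.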

How the data were processed

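Total RNA of 6 pooled sorts was amplified, labelled with Cy3 and hybridised to 1-colour Agilent mouse arrays, per the labels' protocols. Spot intensity values were deposited as background-corrected by Feature Extraction 10.5.1.1, per the file headers (version 9.5 per the submitters' processing notes). The value table that the authors deposited is on a log2 scale, found by comparison: after a fixed shift per array, 100% of its probes lay within 0.05 of the values used here. Its column medians ran from -3.71 to -2.72, and its genes are therefore not centred across arrays.

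Here, log2 of the processed signal minus the array's 75th percentile was used. Of 39419 probes, 27472 were named with 1 symbol through their accessions in a RefSeq gene table (GRCm38.p6), 35 matched several and 11912 none. A genotype difference needed a probe well above background on at least 1 of both arrays; a dim side was set to the lowest signal called above background, or its own if higher, and written "at least". Limma 3.58.1 (R 4.3.3) was fitted to all 6 arrays over genes above background on at least 3, with Benjamini-Hochberg adjustment and 2 residual degrees of freedom; with 1 array per group its spread is between populations and genotypes, not replicates. Scripts were tested on simulated data.

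The 30 genes and all lists were chosen with earlier results of these data known. Text names every member, other pathway genes that passed a test or differed 2-fold or had the largest differences, and markers where a result touches them. Some genes that this rule names are left out of the text. Alternatives were normexp with an offset of 50 on median signals (chosen after seeing that the files hold no mean signal), quantile normalisation, median centring, the mean over probes, other filters, the value table and each array left out.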

Additional observations from a re-analysis of the deposited data

Results flagged for a closer look

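Scd1 differed in opposite directions between populations: -2.12 in CD45-EpCAM+ cells, where it was lower in the double knockout, and 1.26 in CD45+EpCAM- cells, where it was higher. Pltp, outside the 30 genes, did the reverse, with 1.12 in CD45-EpCAM+ cells and -1.53 in CD45+EpCAM- cells. Each value rests on 1 array per genotype, and the difference between the populations was not tested.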

How the results depend on the processing

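The direction of the sterol and LXR efflux medians was kept in each population under every scaling, filter and probe rule tried. Of 623 values of single members under alternatives, 13 turned sign, most of them with normexp. The other filters left these values as they were, and the authors' value table nearly so. The mean over probes could change only the 11 members with a second probe. Many of the 623 values could therefore hardly turn, and the count is no measure of robustness. With normexp, Cyp51 in CD45-EpCAM+ cells turned from -1.01 to 0.11, the SREBP regulation median in CD4+CD25hi thymocytes went from -0.61 to -0.31, and the 2 sterol enzymes at least 2-fold lower there became 1; the cause was not tested. Counting only genes above background on every array, which tests fewer genes, lowered the other pathway genes past the threshold from 9 to 3, from 8 to 5 and from 10 to 6 for CD4+CD25hi minus CD45-EpCAM+, CD4+CD25hi minus CD45+EpCAM- and CD45-EpCAM+ minus CD45+EpCAM- cells. With no filter the second count was 3. With 1 array left out, where the lone array is assumed to vary like the others, the counts over all genes moved, and so did those of the other pathway genes. The genotype fit called 0 of these genes under each alternative. The core SRE was in 2 sterol promoters, the full one in 1. No paired analysis was possible because each group has 1 replicate, as far as replicate numbers go; the genotype fit itself pairs the arrays within each population through its population block, and it called 0 of these genes with and without that block. Signal over background limits the CD45-EpCAM+ values most, since the double-knockout array there was the dimmest.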
